A study of Mus musculus with 4 samples.

Results

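The data on 8 genes of the Wnt signalling pathway were taken from a droplet single-cell RNA sequencing experiment: the secreted antagonists Sfrp1, Sfrp2, Frzb, Dkk2 and Dkk3, the ligand Wnt5a, and the Wnt target genes Axin2 and Lef1. They were chosen by name from the 32285 genes of the deposited matrices, with earlier results of these data known. Cell barcodes were kept if they had at least 5000 unique molecular identifiers (UMIs, each standing for 1 captured RNA molecule). They also needed at least 1500 detected genes and at most 20% mitochondrial UMIs. All cells were C3H10T1/2, a mouse mesenchymal progenitor cell (MPC) line that can form muscle, fat, cartilage and bone cells. The study compared MPC that expressed an added wild-type histone H3 (H3WT) with MPC that expressed the H3R26C mutant of that histone, in which an arginine of the histone tail is replaced by cysteine, after vehicle (DMSO) or 5-Azacytidine (5-Aza), an inhibitor of DNA methyltransferases that makes these cells differentiate. There was 1 library for each of the 4 conditions: H3WT DMSO, H3WT 5-Aza, H3R26C DMSO and H3R26C 5-Aza. Both genotypes therefore carried a transgene, an epitope-tagged human histone H3 driven by the EF1 promoter from a lentivirus, on top of the endogenous histone genes, and puromycin was used to select for it. Whether single clones were picked is not given in the sources used here. Exposure to 5-Aza lasted 24 h at 3 µM, with collection on day 28. The day on which the DMSO cells were collected is not given in the sources used here. The transgene was not analysed here, so the genotype labels were not checked against it.

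Wnt ligands are secreted lipid-modified proteins that bind Frizzled receptors and their Lrp co-receptors, which in the canonical branch stabilises beta-catenin so that it can act with TCF/LEF factors on target genes. Secreted frizzled-related proteins (Sfrp1, Sfrp2 and Frzb) bind Wnt ligands outside the cell, and Dickkopf proteins such as Dkk2 act at the Lrp co-receptors. In mesenchymal progenitors the pathway is known for its part in the choice between bone, cartilage, muscle and fat fates.

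The filter kept 22049 of 39891 barcodes: 3710 of 6239 in H3WT DMSO, 5993 of 15002 in H3WT 5-Aza, 4727 of 6540 in H3R26C DMSO and 7619 of 12110 in H3R26C 5-Aza. The kept cells had a median of 22420, 13149, 16598 and 13123 UMIs in that order, and each library held between 84060490 and 110712425 UMIs in all. Between 24 and 58 kept barcodes were shared by any pair of libraries. All 8 mesenchymal progenitor markers examined (among them Pdgfra, Thy1 and Col1a1) were above 1 CPM (1 UMI of the gene per 1e+06 UMIs of the library) in every library, with a summed level of 9635 to 10593 CPM. The 12 skeletal muscle markers summed to 23.0 CPM in H3WT DMSO and 16.2 CPM in H3R26C DMSO, against 2032 CPM in H3WT 5-Aza and 2551 CPM in H3R26C 5-Aza, so they were at a high level with 5-Aza only. The 12 adipocyte markers summed to between 186 and 371 CPM. Smooth muscle markers summed to 284 to 544 CPM, osteoblast markers to 124 to 254 CPM, chondrocyte markers to 208 to 419 CPM, endothelial markers to 4.69 to 10.6 CPM and blood cell markers to 4.62 to 14.0 CPM. The H3R26C 5-Aza library stood apart in the clustering described further on, since it supplied 1736 of the 1767 cells of one cluster and all 565 cells of another.

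On the GRCm38 assembly, the build of the mm10 reference used by the authors, 3 of the 8 genes lie on chromosome 3 on the plus strand: Sfrp2 at chr3:83766321-83774316, Lef1 at chr3:131110471-131224356 and Dkk2 at chr3:132085292-132180304. The end of Lef1 lies 861 kb from the start of Dkk2. Sfrp1 lies at chr8:23411502-23449632 (plus strand), Frzb at chr2:80411970-80447625 (minus), Dkk3 at chr7:112116017-112159057 (minus), Wnt5a at chr14:28504750-28527448 (plus) and Axin2 at chr11:108920349-108950783 (plus). Sfrp2, Wnt5a and Axin2 each overlap 1 other annotated gene and Lef1 overlaps 2, and how reads in such overlaps were assigned is not given in the sources used here. Promoter sequence from 250 bases before to 50 bases after the start site was taken from RefSeq annotation on GRCm38.p6 for 5 of the 8 genes. Those of Dkk2, Sfrp2 and Axin2, which were past 2-fold in at least 1 comparison, are printed 5′ to 3′ on the strand of the gene, with CG dinucleotides, the sites at which mammalian DNA is methylated and therefore where 5-Aza can act, in capitals.
Dkk2 (chr3:132085042-132085341): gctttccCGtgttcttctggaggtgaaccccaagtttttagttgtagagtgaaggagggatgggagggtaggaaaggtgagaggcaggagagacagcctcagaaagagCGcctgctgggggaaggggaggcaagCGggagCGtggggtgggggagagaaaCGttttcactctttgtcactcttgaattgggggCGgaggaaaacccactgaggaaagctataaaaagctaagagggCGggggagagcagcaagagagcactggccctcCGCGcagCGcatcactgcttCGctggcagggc
Sfrp2 (chr3:83766071-83766370): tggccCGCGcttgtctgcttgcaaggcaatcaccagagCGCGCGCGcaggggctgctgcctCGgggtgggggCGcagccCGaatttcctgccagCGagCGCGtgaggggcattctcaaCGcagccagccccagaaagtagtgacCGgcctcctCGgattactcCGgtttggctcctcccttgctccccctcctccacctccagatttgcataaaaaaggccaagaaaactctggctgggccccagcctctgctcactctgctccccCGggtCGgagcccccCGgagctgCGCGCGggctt
Axin2 (chr11:108920099-108920398): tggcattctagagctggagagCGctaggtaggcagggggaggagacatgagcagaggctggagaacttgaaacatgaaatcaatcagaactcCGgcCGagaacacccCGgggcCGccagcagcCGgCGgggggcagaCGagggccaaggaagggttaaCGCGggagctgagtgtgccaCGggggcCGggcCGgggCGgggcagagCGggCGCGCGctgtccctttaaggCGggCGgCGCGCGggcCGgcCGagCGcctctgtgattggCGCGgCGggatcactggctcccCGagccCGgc

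The Dkk2 window held 11 CG dinucleotides, the Sfrp2 window 22 and the Axin2 window 31. The median over 32851 promoters was 7, and 58.6%, 76.9% and 89.4% of promoters held fewer than these 3. The Frzb promoter held 20, and the 4 annotated Lef1 starts held 18, 21, 8 and 5. The TCF/LEF motif, searched on both strands as CTTTG followed by AA or AT or TA or TT, was absent from all of these windows except 1 Lef1 start (chr3:131156044-131156343), while 16.9% of all promoters held it. DNA methylation itself was not measured in these libraries.

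Levels are given as CPM over the summed UMIs of the kept cells of a library, with the 95% exact Poisson interval, which covers counting error only. As each condition had 1 library there was no replicate error, no test was possible, and a difference between libraries is a difference between these libraries. Ratios are log2 ratios after adding 1 CPM to both levels, and a gene was counted as past 2-fold when that ratio reached 1 in size and the gene had at least 1 CPM in either library. Plain folds are ratios of the CPM values, with the exact binomial interval of the split of the counts. The UMIs come from one end of each transcript, so levels of different genes were not compared with each other.

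Sfrp1, a secreted frizzled-related protein, was lower in both 5-Aza libraries than in both DMSO libraries. Its level was 97.8 CPM (95.7 to 99.9) in H3WT DMSO, 41.2 CPM (39.9 to 42.6) in H3WT 5-Aza, 138 CPM (135 to 140.1) in H3R26C DMSO and 27.0 CPM (26.03 to 27.97) in H3R26C 5-Aza. No intervals overlapped, and H3R26C held both the highest and the lowest of the 4 levels. With 5-Aza, Sfrp1 was 2.37-fold lower in H3WT (2.28 to 2.47) and 5.10-fold lower in H3R26C (4.89 to 5.31). H3R26C was 1.41-fold above H3WT with DMSO and 1.53-fold below it with 5-Aza.

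Sfrp2, also a secreted frizzled-related protein and the member with the most UMIs, was not lower with 5-Aza in H3WT. Its level was 395 CPM (391 to 399) in H3WT DMSO, 409.9 CPM (406 to 414) in H3WT 5-Aza, 510.3 CPM (506 to 515) in H3R26C DMSO and 169 CPM (167 to 171) in H3R26C 5-Aza. The H3R26C 5-Aza library stood alone at the low end and the other 3 lay within 1.29-fold of the H3WT DMSO level. With 5-Aza the level was 1.04-fold higher in H3WT (1.02 to 1.05) and 3.02-fold lower in H3R26C (2.97 to 3.07). Between the genotypes, H3R26C was 1.29-fold higher with DMSO and 2.43-fold lower with 5-Aza (2.38 to 2.47).

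Dkk2, a Dickkopf protein, had the widest range of the 8 genes and was highest in H3R26C 5-Aza. It was at 1.09 CPM (0.885 to 1.34) in H3WT DMSO, 41.0 CPM (39.6 to 42.4) in H3WT 5-Aza, 8.03 CPM (7.44 to 8.66) in H3R26C DMSO and 111 CPM (109 to 113) in H3R26C 5-Aza. No intervals overlapped, both 5-Aza libraries lay above both DMSO libraries, and H3R26C lay above H3WT under either treatment. The 5-Aza level was 37.5-fold above the DMSO level in H3WT (30.6 to 46.5) and 13.8-fold above it in H3R26C (12.8 to 14.9). H3R26C was 7.34-fold above H3WT with DMSO (5.92 to 9.20) and 2.70-fold above it with 5-Aza (2.60 to 2.80). The H3WT DMSO level rested on 95 UMIs and the other 3 on 675 to 12256.

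Dkk3 and Frzb were low in every library. Dkk3, a divergent member of the Dickkopf family, was at 2.76 CPM (2.42 to 3.14) in H3WT DMSO, 5.17 CPM (4.70 to 5.68) in H3WT 5-Aza, 2.61 CPM (2.27 to 2.97) in H3R26C DMSO and 2.50 CPM (2.22 to 2.81) in H3R26C 5-Aza. H3WT 5-Aza was the highest and the intervals of the other 3 overlapped. Between the 5-Aza libraries Dkk3 was 2.07-fold lower in H3R26C (1.77 to 2.41), which the added 1 CPM brings under the 2-fold limit. Frzb, a secreted frizzled-related protein first known from cartilage, was at 0.345 CPM (0.233 to 0.493) in H3WT DMSO, 0.830 CPM (0.647 to 1.05) in H3WT 5-Aza, 0.0476 CPM (0.0130 to 0.122, on 4 UMIs) in H3R26C DMSO and 0.623 CPM (0.485 to 0.789) in H3R26C 5-Aza. It was below 1 CPM in all 4 libraries and so entered none of the counts of genes past 2-fold, and only the H3R26C DMSO interval was clear of the others.

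Wnt5a, a ligand that mostly signals without beta-catenin, was at 6.38 CPM (5.86 to 6.93) in H3WT DMSO, 5.10 CPM (4.63 to 5.60) in H3WT 5-Aza, 8.40 CPM (7.79 to 9.04) in H3R26C DMSO and 3.44 CPM (3.10 to 3.80) in H3R26C 5-Aza. The intervals did not overlap, and the order of the libraries was that of Sfrp1: H3R26C DMSO at the top, then H3WT DMSO, H3WT 5-Aza and H3R26C 5-Aza. With 5-Aza, Wnt5a was 1.25-fold lower in H3WT (1.10 to 1.42) and 2.44-fold lower in H3R26C (2.15 to 2.77). The H3R26C call rested on the low pseudocount, since the log2 ratio was -1.08 with 1 CPM added and -0.67 with 5 CPM.

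Axin2, a negative regulator of beta-catenin that canonical Wnt signalling itself induces, was near the limit of detection except in H3R26C 5-Aza. Its level was 0.345 CPM (0.233 to 0.493) in H3WT DMSO, 0.462 CPM (0.329 to 0.632) in H3WT 5-Aza, 0.630 CPM (0.472 to 0.825) in H3R26C DMSO and 4.61 CPM (4.22 to 5.02) in H3R26C 5-Aza, on 30, 39, 53 and 510 UMIs. The first 3 intervals overlapped from neighbour to neighbour and the last lay far above them. H3R26C 5-Aza was 9.96-fold above H3WT 5-Aza (7.19 to 14.2) and 7.31-fold above H3R26C DMSO (5.50 to 9.89). At this low level the log2 ratios depended on the pseudocount: they were 1.94 and 1.78 with 1 CPM added and 0.81 and 0.77 with 5 CPM.

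Lef1, which encodes a TCF/LEF factor, did not share this pattern. It was at 1.98 CPM (1.70 to 2.30) in H3WT DMSO, 1.43 CPM (1.19 to 1.71) in H3WT 5-Aza, 1.31 CPM (1.08 to 1.58) in H3R26C DMSO and 0.668 CPM (0.525 to 0.839) in H3R26C 5-Aza. The H3R26C 5-Aza library, where Axin2 was highest, was the lowest for Lef1, and neighbouring intervals among the other 3 overlapped. Between the 5-Aza libraries Lef1 was 2.15-fold lower in H3R26C (1.59 to 2.91), again under the limit after 1 CPM was added.

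**Figure D1:**
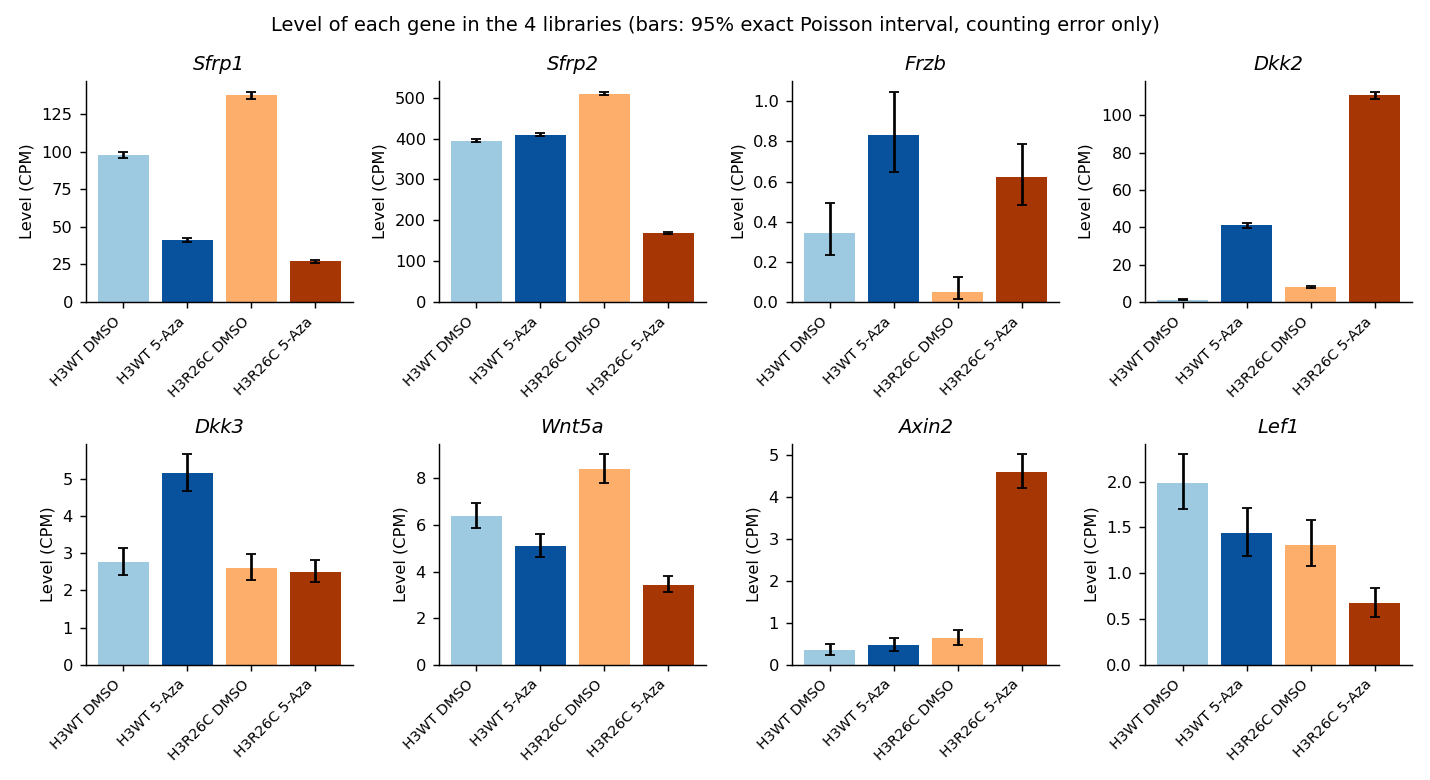
Level (CPM, axis from 0) of each of the 8 genes in the 4 libraries, 1 bar a library, with the 95% exact Poisson interval as error bar. In H3R26C 5-Aza, Dkk2 (111 CPM) and Axin2 (4.61 CPM) were at their highest and Sfrp1 (27.0 CPM), Sfrp2 (169 CPM), Wnt5a (3.44 CPM) and Lef1 (0.668 CPM) at their lowest.

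The first question was whether the genotypes differed without 5-Aza. With DMSO, 1 of the 6 genes that reached 1 CPM in either library was past 2-fold between the genotypes, Dkk2 (log2 ratio 2.11), against 2.5% of the 12250 genes tested (1.91% higher and 0.588% lower in H3R26C). Frzb and Axin2 stayed below 1 CPM. The other 5 lay between -0.37 (Lef1) and 0.49 (Sfrp1), the median of the 6 was 0.36, and that of all genes was 0.03. The second question was whether the genotypes differed after 5-Aza. There, 3 of the 7 genes that reached 1 CPM, all but Frzb, were past 2-fold against 7.64% of 13010 genes (5.03% higher, 2.61% lower): Axin2 (1.94), which reached 1 CPM only through the H3R26C library, and Dkk2 (1.41) were higher in H3R26C and Sfrp2 (-1.27) was lower. As Axin2 entered through the library in which it was high, its call is not read against those shares. Dkk3 (-0.82), Sfrp1 (-0.59), Lef1 (-0.55) and Wnt5a (-0.46) were below 0 without reaching 2-fold, and the median of the 7 was -0.55 against -0.02 over all genes.

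The response to 5-Aza was then read within each genotype. In H3WT, where Frzb and Axin2 again stayed below 1 CPM, 2 of 6 genes were past 2-fold against 5.15% of 12622 genes (4.88% higher, 0.269% lower), Dkk2 upward (4.33) and Sfrp1 downward (-1.23). Sfrp2 was at 0.05, Dkk3 at 0.71, Wnt5a at -0.27 and Lef1 at -0.29. In H3R26C, 5 of the 7 genes other than Frzb were past 2-fold against 12.1% of 12974 genes (9.09% higher, 3.02% lower): Dkk2 (3.63) and Axin2 (1.78, above 1 CPM in the 5-Aza library only) were higher with 5-Aza, while Sfrp1 (-2.31), Sfrp2 (-1.59) and Wnt5a (-1.08) were lower. The Axin2 call is again not read against the share of all genes, for the same reason. Dkk3 was at -0.04 and Lef1 at -0.47. The 4 comparisons share their libraries in pairs, so they are not separate pieces of evidence.

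**Figure D2:**
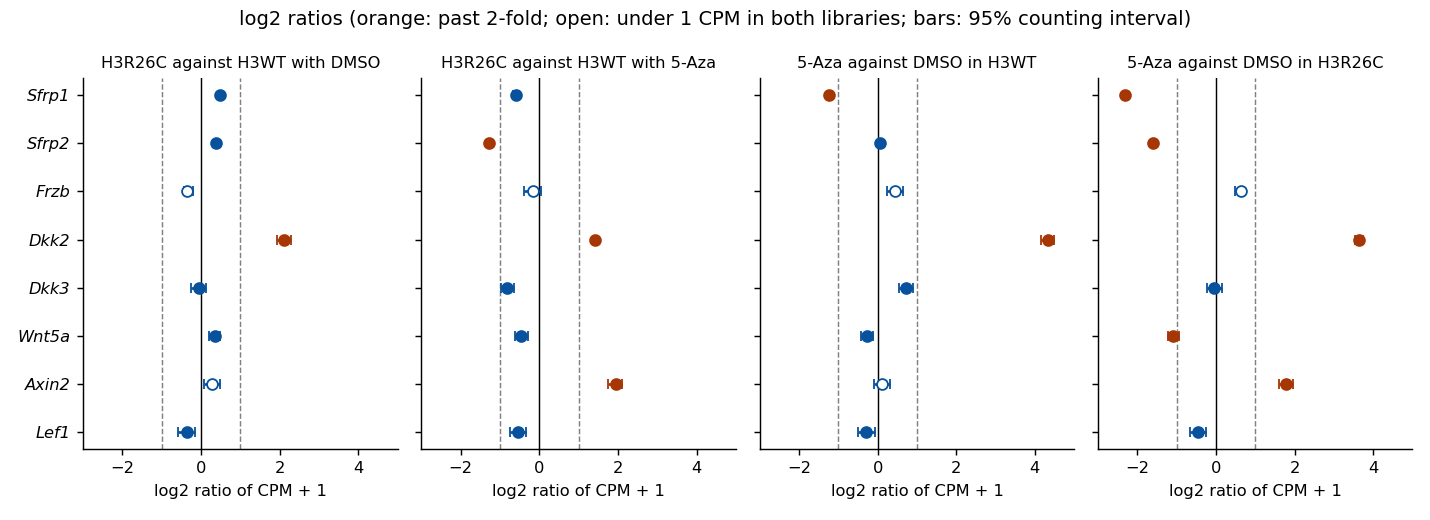
log2 ratio of CPM + 1 of the 8 genes in the 4 comparisons, with 95% counting intervals as bars, dashed lines at 2-fold, orange points past 2-fold and open points for genes under 1 CPM in both libraries. Dkk2 lies past 2-fold to the right in all 4 panels, and Sfrp1 lies past 2-fold to the left in both panels of 5-Aza against DMSO.

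The difference between the genotypes in their 5-Aza response (the log2 ratio in H3R26C minus that in H3WT) was 1.66 for Axin2, -1.64 for Sfrp2 and -1.08 for Sfrp1. It was between -0.81 (Wnt5a) and -0.18 (Lef1) for the 4 other genes with at least 1 CPM in any of the libraries, with Dkk2 at -0.70 and Dkk3 at -0.76. Over all 13185 genes, 4.92% differed by 1 or more. Axin2 reached 1 CPM only through H3R26C 5-Aza, the library in which it was high, so its value is not read against that share. Its 5-Aza ratio in H3R26C was 1.78 with 1 CPM added and 0.77 with 5 CPM. With 1 library a condition, none of these differences in response could be tested.

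The share of cells in which a gene was seen was compared after each cell was thinned to 5000 UMIs, since the libraries differed in depth. Sfrp2 was seen in 46.4%, 44.3% and 53.4% of the cells of H3WT DMSO, H3WT 5-Aza and H3R26C DMSO, and in 17.2% of those of H3R26C 5-Aza (95% exact binomial interval 16.4 to 18.1). Without thinning these shares were 67.8%, 57.0%, 67.7% and 24.2%. Sfrp1 was seen in 29.5%, 13.5%, 32.0% and 6.93% of thinned cells in the same order, and in 60.8%, 24.7%, 55.2% and 13.5% without thinning. Both antagonists thus had their smallest share of positive cells in H3R26C 5-Aza, as they had their lowest level there.

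Dkk2 was seen in 0.674%, 11.9%, 3.51% and 30.6% of thinned cells, so the library with the fewest Sfrp1 and Sfrp2 cells had the most Dkk2 cells. The unthinned Dkk2 shares were 1.81%, 22.8%, 7.19% and 48.3%. Axin2 was seen in 0.243%, 0.284% and 0.296% of thinned cells in the first 3 libraries and in 2.00% (1.69 to 2.33) in H3R26C 5-Aza. Its unthinned shares were 0.809%, 0.601%, 1.10% and 4.83%. Wnt5a was seen in 3.15%, 2.50%, 4.25% and 1.82% of thinned cells, Dkk3 in 1.64%, 2.44%, 1.02% and 1.12%, and Lef1 in 0.863%, 0.667%, 0.444% and 0.407%. Frzb was seen in 0.162%, 0.367% and 0.263% of thinned cells in H3WT DMSO, H3WT 5-Aza and H3R26C 5-Aza. In H3R26C DMSO it was seen in 0 of 4727 thinned cells (exact binomial interval up to 0.078%). Without thinning, 4 of these 4727 cells (0.0846%) held a Frzb UMI.

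Free RNA can place UMIs in cells that do not express a gene. No cell type in these cultures was known to lack all 8 genes, and the muscle-like cluster H, present only in the 5-Aza libraries, was used for comparison. In its 180 H3WT cells (median 15799 UMIs), Sfrp1 was seen in 3.89% of thinned cells, Dkk2 in 7.22% and Sfrp2 in 23.9%, each below the share of the whole library (median 13149 UMIs). In its 348 H3R26C cells (median 20595 UMIs against 13123 in the library), the shares were 3.16% for Sfrp1, 6.90% for Sfrp2, 7.76% for Dkk2 and 0.862% for Axin2, again below those of the library. Barcodes with fewer than 2000 UMIs, which can hold free RNA and damaged cells, carried Dkk2 at 1.05, 17.8, 7.44 and 63.7 CPM and Sfrp2 at 317, 209.99, 412 and 80.3 CPM in H3WT DMSO, H3WT 5-Aza, H3R26C DMSO and H3R26C 5-Aza. These barcodes thus ranked the libraries for Dkk2 as the kept cells did, and put H3R26C 5-Aza lowest for Sfrp2. For Sfrp2 they put H3WT DMSO above H3WT 5-Aza, the reverse of the kept cells. They carried Sfrp1 at 48.7, 18.2, 70.7 and 26.7 CPM in the same order of libraries. For Sfrp1, H3WT 5-Aza was therefore lowest in these barcodes, whereas H3R26C 5-Aza was lowest in the kept cells.

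Sfrp2 was spread unevenly over cells. Had its thinned UMIs been spread evenly, 85.0% of H3WT DMSO cells, 87.4% of H3WT 5-Aza cells, 92.9% of H3R26C DMSO cells and 58.4% of H3R26C 5-Aza cells would have held one. The 1 in 10 cells with the most Sfrp2 held 59.1%, 60.4%, 55.2% and 90.8% of its UMIs in that order. Sfrp2 RNA was therefore concentrated in few cells of H3R26C 5-Aza. Dkk2 would have been seen in 43.3% of H3R26C 5-Aza cells under an even spread, against the 30.6% measured.

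Sfrp2 was seen more often in cells with Sfrp1 than in other cells, in all 4 libraries. Of the thinned cells of H3R26C 5-Aza with an Sfrp1 UMI, 38.3% held Sfrp2, against 15.6% of cells without one. The corresponding shares were 49.0% and 45.3% in H3WT DMSO, 55.4% and 42.6% in H3WT 5-Aza, and 61.5% and 49.6% in H3R26C DMSO. The gap was widest in H3R26C 5-Aza. Dkk2 went the other way in H3WT 5-Aza, where it was seen in 7.40% of Sfrp1-positive and 12.6% of other cells. In H3R26C the corresponding Dkk2 shares were close, at 28.03% and 30.8% with 5-Aza and at 4.03% and 3.27% with DMSO. In H3R26C 5-Aza, Axin2 was seen in 2.58% of Dkk2-positive and 1.74% of other cells, and in 0.840% of Sfrp2-positive and 2.23% of other cells. These are shares of cells within 1 library and carry no replicate error.

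To see where in the cultures the genes were expressed, the kept cells were grouped into 11 clusters with the 8 genes left out of the clustering, and counts were summed for each cluster and library with at least 50 cells. Clusters are named by letter and leading genes. A (8874 cells) was led by Colec10, Eln and Fosb, B (5554) by Crabp1, Slpi and Ifi27l2a, C (1963) by Tmem176b and Mmp9, D (1767) by Msln and Nefl, E (1587) by Igfbp5, F (680) by Gm26917, Neat1 and Malat1, G (565) by Enpp2 and I (344) by histone genes of dividing cells. H (528) and J (120) were muscle-like and K (67) was adipocyte-like. F had a median of 7946 UMIs and 7.58% mitochondrial UMIs, against medians of 2.29 to 3.23% mitochondrial UMIs in A to D. D and G came nearly entirely or entirely from H3R26C 5-Aza, so for them cluster and library cannot be told apart.

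Within H3R26C 5-Aza, Sfrp1 and Sfrp2 were highest in A and B among the clusters with at least 50 cells. C, E, I and K, with 15 to 40 cells in that library, were left out of this ranking. Sfrp2 was at 1083 CPM in the 178 cells of A, 242 CPM in the 4275 cells of B and 39.4 CPM in F. It was at 22.1 CPM in the muscle-like H, 18.9 CPM in the 565 cells of G, 13.0 CPM in the 1736 cells of D and 8.99 CPM, on 7 UMIs, in the 60 cells of the muscle-like J. Cluster A held 2.09% of the UMIs of the library and 13.4% of its Sfrp2 UMIs, whereas D and G held 23.4% and 7.69% of all UMIs and 1.79% and 0.861% of the Sfrp2 UMIs. Sfrp1 was at 135 CPM in A, 38.4 CPM in B, 21.5 CPM in F, 10.3 CPM in J, 7.15 CPM in H, 5.76 CPM in G and 4.41 CPM in D. Of the clusters ranked, both antagonists were therefore highest in A, and their low levels in D and G were shared by the muscle-like H and J.

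Dkk2 and Axin2 had other maxima in H3R26C 5-Aza. Dkk2 was at 271 CPM in G, where it was seen in 67.6% of thinned cells, at 136 CPM in F, 124 CPM in B, 61.7 CPM in D, 60.9 CPM in A, 22.1 CPM in H and 21.8 CPM in J. Axin2 was at 19.1 CPM in G, 12.0 CPM in F, 7.50 CPM in D, 6.42 CPM in J (5 UMIs), 2.59 CPM in A, 1.62 CPM in B and 1.21 CPM in H. Cluster D held 23.4% of the UMIs of the library and 38.0% of its Axin2 UMIs, and G held 7.69% and 32.0%. Most Dkk2 UMIs (61.8%) came from B, which held 55.4% of all UMIs. Axin2 UMIs were thus concentrated in D and G, and Dkk2 was found throughout. The Axin2 level in F was above that in D, and F held 2.48% of all UMIs and 6.47% of the Axin2 UMIs. Wnt5a, on few counts, was at 6.56 CPM in F, 5.40 CPM in G, 4.32 CPM in A, 4.21 CPM in B and between 1.08 and 1.28 CPM in D, H and J.

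In the other libraries the lowest Sfrp2 level of a cluster with at least 50 cells was 79.3 CPM, in I of H3WT DMSO. Smaller groups of cells went lower: the adipocyte-like K, with 11 to 28 cells a library, was at 19.8 CPM when pooled over the libraries. Of the 341 Sfrp2 UMIs of D, 335 came from its 1736 cells of H3R26C 5-Aza. The rest came from its 30 cells of H3WT 5-Aza and 1 of H3WT DMSO. These cells were thus low in Sfrp2 too, on very few UMIs. Sfrp2 in H3WT 5-Aza was at 553 CPM in A, 221 CPM in B, 265 CPM in C, 204 CPM in E and 169.8 CPM in the muscle-like H. In H3R26C DMSO it was at 1576 CPM in F, 751 CPM in A, 522 CPM in both B and E, 199 CPM in C and 114 CPM in I. Dkk2 in H3WT 5-Aza was between 6.85 CPM (J) and 63.2 CPM (B), with 51.1 CPM in C, 43.6 CPM in E and 33.1 CPM in A, and in H3R26C DMSO it was between 4.17 CPM (I) and 21.4 CPM (F). Frzb was mostly a B gene with 5-Aza: 56 of its 70 UMIs in H3WT and 62 of 69 in H3R26C came from B. Its level there was 3.31 CPM in the 1205 cells of H3WT and 1.01 CPM in the 4275 cells of H3R26C.

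**Figure D3:**
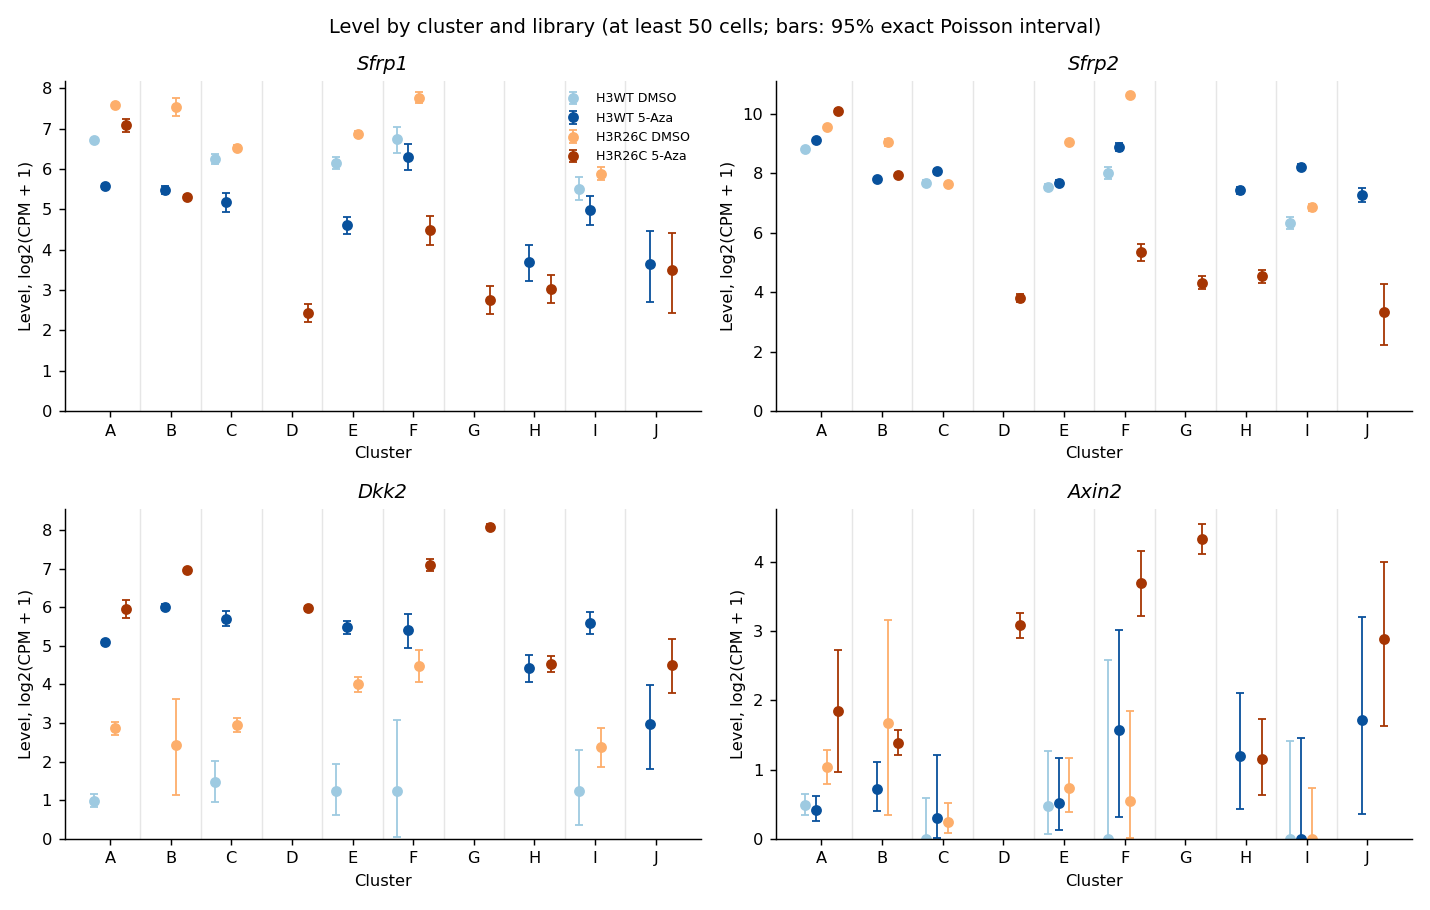
Level of Sfrp1, Sfrp2, Dkk2 and Axin2 in each cluster (A to J) and library, as log2(CPM + 1), for sums of at least 50 cells, with 95% exact Poisson intervals. Clusters D and G, shown for H3R26C 5-Aza alone, sit lowest or nearly lowest for Sfrp1 and Sfrp2, and G sits highest for Dkk2 and Axin2.

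Among cells of one cluster, the genotype comparison after 5-Aza was not the same as in the whole libraries. In A, Sfrp2 was at 1083 CPM in H3R26C against 553 CPM in H3WT (log2 ratio 0.97) and Sfrp1 at 135 CPM against 46.6 CPM (1.52), so both were higher in H3R26C. The A value rested on 178 H3R26C cells, and in the matching cluster of a finer clustering, with 98 H3R26C cells, the ratios were 0.38 and 1.24. In B, the largest cluster shared by the 5-Aza libraries, Sfrp2 was at 242 CPM against 221 CPM (0.13) and Sfrp1 at 38.4 CPM against 43.4 CPM (-0.17). In F, H and J, Sfrp2 was lower in H3R26C (-3.55, -2.88 and -3.95). Sfrp2 was therefore lower in H3R26C 5-Aza in the library sum and in F, H and J, not in A or B. In H and J of H3WT 5-Aza it was at 169.8 and 153 CPM, below the 209.99 CPM of barcodes with fewer than 2000 UMIs. In H3R26C 5-Aza the corresponding levels were 22.1 and 8.99 CPM, below 80.3 CPM. What free RNA adds to these values was not tested. F had a median of 7946 UMIs and 7.58% mitochondrial UMIs. The 5-Aza libraries also differed in make-up. Cluster A held 59.0% of the cells of H3WT 5-Aza and 2.34% of those of H3R26C 5-Aza, and B held 20.1% and 56.1%. How much of the library ratio goes with this make-up was not tested. With D and G left out, a step added after the data had been seen, the library ratio was -0.79 for Sfrp2 and -0.16 for Sfrp1, and 2 of the 8 genes (Dkk2 and Axin2) were past 2-fold in place of 3.

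Dkk2 was above H3WT in all 5 clusters shared by the 5-Aza libraries, with ratios from 0.10 to 1.70, and the interval was above 0 in 4 of them. In B it was at 124 CPM against 63.2 CPM (0.96). Without D and G its library ratio was 1.41. Axin2 had an interval above 0 in 3 of the 5 clusters, at 2.14 in F, 1.43 in A and 0.66 in B, and its library ratio without D and G was 1.04. The Axin2 ratios rested on few UMIs: 33 in H3R26C and 2 in H3WT in F, and 6 and 16 in A. In the cluster matching A of the finer clustering, Axin2 was at 0.97, with an interval that spans 0 (-0.20 to 2.21). In B, Frzb was at 1.01 CPM in H3R26C against 3.31 CPM in H3WT (-1.10). Lef1 was at 0.734 CPM against 3.02 CPM there (-1.21). For both genes B was the only 1 of the 5 clusters with an interval below 0, and 0 had an interval above 0.

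With DMSO, the clusters mostly followed the library sums in direction, less so in size. The DMSO libraries differed in make-up too. Cluster A held 83.4% of the cells of H3WT DMSO and 43.7% of those of H3R26C DMSO, and C held 6.28% and 30.4%. The Sfrp2 ratio was 0.37 in the library sum and 0.75 in A, and that of Sfrp1 was 0.49 and 0.87. How much of these library ratios goes with make-up was not tested. Dkk2 was higher in H3R26C in all 5 shared clusters (1.14 to 3.26, interval above 0 in 4) and Sfrp1 in all 5 (0.29 to 1.03, interval above 0 in all 5). Sfrp2 ran from -0.04 in C to 2.62 in F, with the interval above 0 in 4. Within H3WT, the 5-Aza ratio of Dkk2 lay between 4.11 and 4.35 in all 5 shared clusters and that of Sfrp1 between -1.55 and -0.43. The H3WT DMSO sums behind both Dkk2 ranges held 69 UMIs in A, 13 in C, 7 in E, 3 in I and 1 in F. The narrow range of the 5-Aza ratio thus carried wide intervals, such as 2.23 to 5.38 in F and 3.23 to 5.26 in I. Sfrp2 was above 0 in all 5 (0.15 to 1.88). Within H3R26C, 3 clusters held at least 50 cells of both libraries. There Dkk2 was higher with 5-Aza in all 3 (2.61 to 4.53), Sfrp1 lower in all 3 (-3.27 to -0.49), and Sfrp2 higher in A (0.53) and lower in B (-1.11) and F (-5.29). The direction was thus uniform for Dkk2 and Sfrp1 and mixed for Sfrp2. The Dkk2 ratio of 4.53, in B, rested on 4 Dkk2 UMIs in the DMSO library. Axin2 was at 0.81 in A, with an interval that spans 0 (-0.12 to 1.72), at -0.29 in B and at 3.15 in F. The B and F ratios rested on 2 and 1 Axin2 UMIs in the DMSO library. With D and G left out of the H3R26C 5-Aza library, 3 of the 8 genes were past 2-fold in place of 5: Dkk2 (3.61), Sfrp1 (-1.87) and Sfrp2 (-1.09), with Axin2 at 0.88 and Wnt5a at -0.92.

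The calls were also made without the muscle-like and adipocyte-like clusters, since the muscle markers moved with treatment. The 5-Aza ratio in H3R26C was then -2.23 for Sfrp1, -1.49 for Sfrp2, 3.72 for Dkk2, 1.84 for Axin2 and -1.02 for Wnt5a, each still past 2-fold. By cell cycle phase, assigned from expression scores, Sfrp2 in H3R26C 5-Aza was at 218 CPM in G1, 114 CPM in S and 56.4 CPM in G2M cells, and it was lowest in G2M in the other 3 libraries too. Axin2 in that library was at 3.40 CPM in G1, 6.82 CPM in S and 6.48 CPM in G2M, lowest in G1, where Sfrp2 was highest. In the other 3 libraries, on few UMIs, Axin2 was at 0.365 to 0.800 CPM in G1 and at 0 in G2M. Phase was not separated from cluster, and 54.1% of the cells of D were in S or G2M. In G1 cells alone the genotype ratio after 5-Aza was -0.98 for Sfrp2, just short of 2-fold, 1.60 for Dkk2 and 1.52 for Axin2.

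Over the 26 sums of a cluster in a library, Sfrp1 and Sfrp2 varied together (Pearson r = 0.85 of log2(CPM + 1)), Wnt5a went with Sfrp1 (0.72) and Sfrp2 (0.63), and Dkk2 with Axin2 (0.60). Axin2 ran against Sfrp1 (-0.54) and Sfrp2 (-0.57). The sums share libraries, clusters and depth, so these values are descriptions. Of the 8609 genes whose mean level reached 10 CPM, the closest to Sfrp1 were Col23a1 (0.93), Fam171b (0.91) and Cdkn1b (0.91), and the closest to Sfrp2 were Islr (0.91), Rspo2 (0.91) and Fbln5 (0.91). Dkk2 was closest to Igfbp7 (0.91), H2-D1 (0.90) and H2-K1 (0.90), Wnt5a to Mmp19 (0.89), H2-DMa (0.89) and Sphk2 (0.88), and Axin2 to Znhit6 (0.87), Ptpn13 (0.87) and Ahr (0.86). For Dkk3 they were Pi16 (0.84), Adamtsl5 (0.80) and Snap29 (0.79). The highest values for Frzb (0.66) and Lef1 (0.66) rested on sparse counts.

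The rest of the pathway was followed in 80 further genes in 6 lists: 18 ligands, 16 receptors, 12 antagonists, 10 agonists and secretion factors, 15 intracellular components and 9 feedback and target genes. With DMSO, 1 of the 48 that reached 1 CPM was past 2-fold between the genotypes, Ror2, a Wnt5a receptor, whose level was 0.794 CPM in the wild-type library and 3.19 CPM in the mutant one. Over all genes 2.5% were past 2-fold in that comparison. Ror2 reached the minimum only through the library in which it was high, so nothing is read from the 1 of 48. After 5-Aza, 9 of 59 were higher and 3 lower in H3R26C, against 5.03% and 2.61% of all genes. Of the 18 ligands, 7 reached 1 CPM and 4 of these were higher in H3R26C. However, Wnt10a, Wnt7b and Wnt16, and from the other lists Notum and Rspo1, were below 1 CPM in H3WT 5-Aza. These genes reached the minimum only through the library in which they were high. Nothing is therefore read from the count of ligands or from the 9 of 59. All 15 intracellular components reached 1 CPM, and 0 were higher and 1 lower. In H3WT, 2 of 51 were higher with 5-Aza and 0 lower, against 4.88% and 0.269% of all genes. Of these 2, Nkd2 was at 0.760 CPM in H3WT DMSO and 2.98 CPM in H3WT 5-Aza. It reached the minimum only through the library in which it was high, so nothing is read from the 2 of 51. In H3R26C, 11 of 55 were higher and 3 lower, against 9.09% and 3.02%. Of those higher, Wnt6, Wnt7b, Wnt10a, Wnt16, Fzd6, Rspo1, Ndp and Nkd2 were below 1 CPM in H3R26C DMSO. They reached the minimum only through the library in which they were high, so nothing is read from the 11 of 55.

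Among the ligands, Wnt10a, which signals through beta-catenin, was at 0 CPM in both DMSO libraries, 0.451 CPM in H3WT 5-Aza and 32.2 CPM in H3R26C 5-Aza. Against a floor of 3 counts in H3R26C DMSO this was at least 901-fold higher with 5-Aza. Within that library it was at 143 CPM in G, where it is among the leading genes of the cluster, 65.5 CPM in D and 8.26 CPM in B, on 1215, 1695 and 506 UMIs. Wnt6 was at 2.29, 3.22, 0.999 and 11.6 CPM in H3WT DMSO, H3WT 5-Aza, H3R26C DMSO and H3R26C 5-Aza.

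Of the other antagonists, Notum, a secreted enzyme that inactivates Wnt ligands by removing their lipid, was at 0.541, 0.735, 1.40 and 16.1 CPM in that order of libraries. Within H3R26C 5-Aza it was at 42.8 CPM in D and 40.6 CPM in G, where Axin2 was high too, at 17.9 CPM in F and at 4.24 CPM in B. Sfrp4, another secreted frizzled-related protein, was at 3.34 CPM in H3WT DMSO and 2.14 CPM in H3R26C DMSO and at 122 CPM and 72.5 CPM in the corresponding 5-Aza libraries, log2 ratios of 4.82 and 4.55. Sfrp4 was thus higher with 5-Aza in both genotypes, where Sfrp1 was lower in both.

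Rspo2, an R-spondin that strengthens Wnt signals at the receptor, was at 871, 564, 845 and 214 CPM, lowest in H3R26C 5-Aza as Sfrp2 was. Its 5-Aza ratio in H3R26C was -1.98, and in that library it was at 889 CPM in A, 310.5 CPM in B, 27.5 CPM in D and 22.9 CPM in G. Pygo1, a nuclear partner of beta-catenin, was at 25.1, 18.6, 22.6 and 7.79 CPM, and the receptor Fzd3 at 8.66, 6.83, 7.14 and 2.81 CPM. Both were lowest in H3R26C 5-Aza, with ratios of -1.16 and -1.04 against H3WT 5-Aza and -1.42 and -1.10 against H3R26C DMSO.

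**Figure D4:**
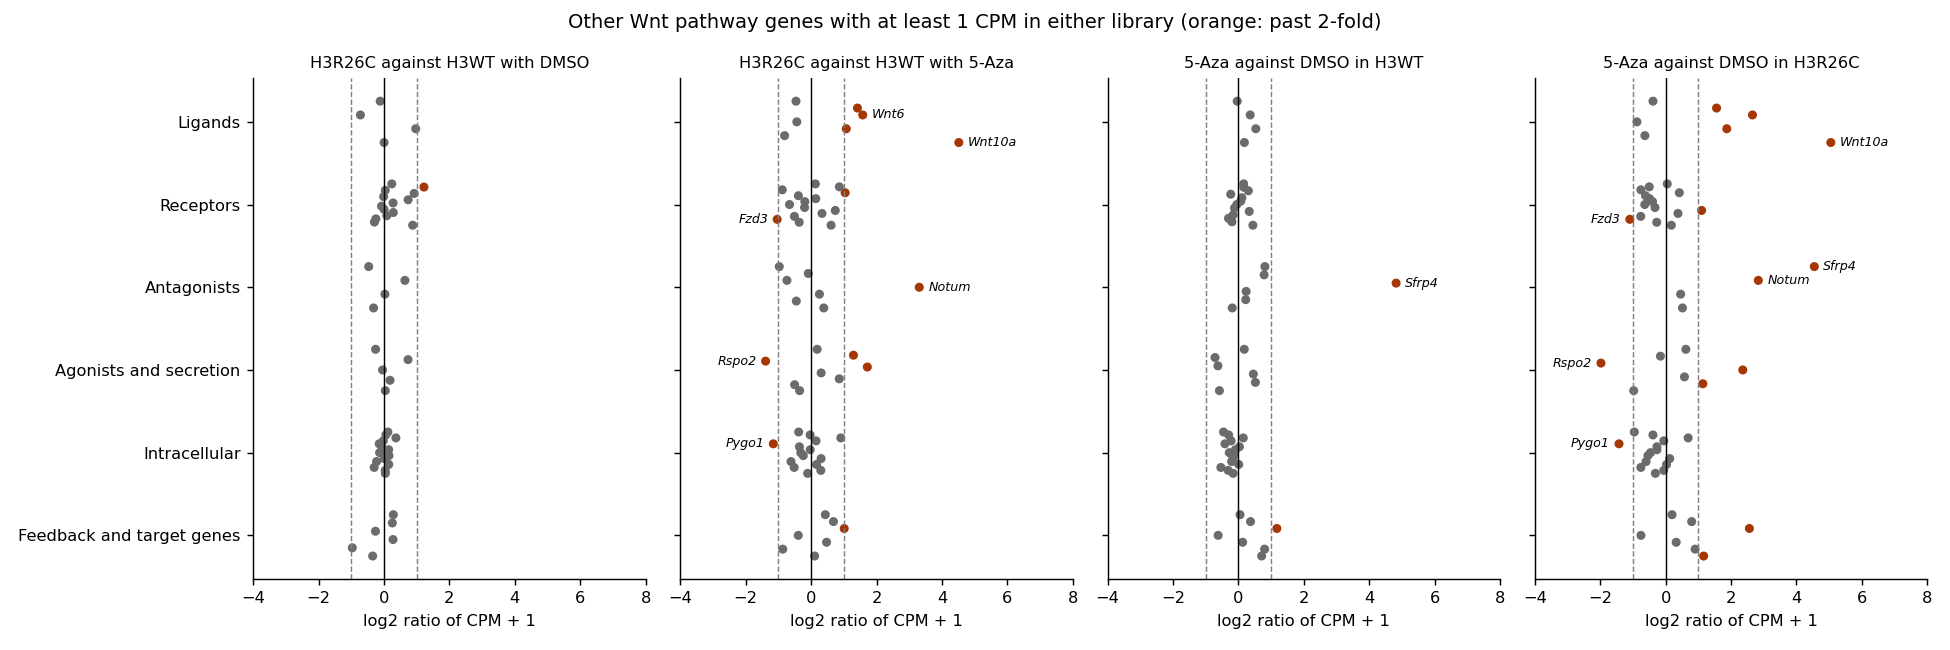
log2 ratio of CPM + 1 of the other Wnt pathway genes with at least 1 CPM in either library, by list (rows) and comparison (panels), 1 point a gene, with dashed lines at 2-fold and orange points past it. Sfrp4 lies near 4.82 and 4.55 in the 5-Aza panels of H3WT and H3R26C, and Wnt10a and Notum lie to the right in both panels that hold H3R26C 5-Aza.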

How the data were processed

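The authors processed the reads with Cell Ranger 6 (6.1.0 in the matrix header) against the mm10 reference and deposited filtered matrices of whole-number UMI counts per gene and barcode, 1 for each of the 4 libraries. From these counts, barcodes with at least 5000 UMIs, 1500 genes and at most 20% mitochondrial UMIs were kept, as the study's methods state. Doublets were not called, and chance doublets among the kept cells remain. Counts were summed per library and scaled to CPM, and log2 ratios used a pseudocount of 1 CPM. With 1 library a condition, no model or test was run. Intervals cover counting error only. For shares, each cell was thinned to 5000 UMIs. Cells were clustered with Seurat 5.3.0 and sctransform 0.4.2 in R 4.3.3, cell cycle scores regressed out, 20 principal components and resolution 0.2 (alternative 0.4), and the 8 genes left out. Other steps used Python 3.11.15, numpy 2.4.6 and scipy 1.17.1. The ratio and count code was tested on simulated data. The 8 genes, the 6 pathway lists and the marker lists were chosen with earlier results of these data known. Other pathway genes were named where they were past 2-fold with at least 5 CPM in either library, up to 3 in each direction a comparison; Ror2 was named after its value was seen. Gene positions came from GENCODE M21, which matched 99.8% of the gene identifiers. Alternatives covered the pseudocount, scaling, cell filter, expression minimum, fold limit, cell cycle phase and clusters.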

Additional observations from a re-analysis of the deposited data

Results flagged for a closer look

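Sfrp1, Sfrp2 and Wnt5a had genotype ratios of opposite sign with 5-Aza and with DMSO, and with 1 library a condition none of these differences was tested. Sfrp1 was lower in H3R26C than in H3WT with 5-Aza (log2 ratio -0.59) and higher with DMSO (0.49). Sfrp2 was lower in H3R26C with 5-Aza (-1.27) and higher with DMSO (0.37). In the library sums its response to 5-Aza was -1.59 in H3R26C and close to no change in H3WT (0.054). Within clusters, Sfrp2 was higher with 5-Aza in all 5 shared by the H3WT libraries (0.15 to 1.88). In H3R26C it was higher with 5-Aza in A (0.53) and lower in B (-1.11) and F (-5.29). Wnt5a was lower in H3R26C with 5-Aza (-0.46) and higher with DMSO (0.35). In clusters D and G of H3R26C 5-Aza, Sfrp1 was at 4.41 and 5.76 CPM and Sfrp2 at 13.0 and 18.9 CPM. With D and G left out, the genotype ratio with 5-Aza was -0.16 for Sfrp1 and -0.79 for Sfrp2, and -0.30 for Wnt5a.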

How the results depend on the processing

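No paired analysis was possible because the labels give no replicate numbers and there is 1 library a condition. Over all alternatives, 357 of 368 log2 ratios of the 8 genes kept their direction, and of 129 values for the 11 ratios past 2-fold, 11 came out under that limit: Sfrp2 between the genotypes with 5-Aza under 3 alternatives, Axin2 under 2 there and under 3 for 5-Aza in H3R26C, Wnt5a under 2 for 5-Aza in H3R26C and Dkk2 under 1 between the genotypes with 5-Aza. Of those 11, 2 changed sign, both within cluster B alone, the largest cluster shared by the libraries compared: Sfrp2 in H3R26C against H3WT with 5-Aza was at 0.13, and Axin2 with 5-Aza in H3R26C was at -0.29, on 2 UMIs in the DMSO cells of that cluster. The number of the 8 genes past 2-fold became 3 for 5-Aza in H3R26C, both with a pseudocount of 5 CPM and without clusters D and G, and 5 with a 1.5-fold limit for the genotypes with 5-Aza. Counts of the other pathway genes depended on the limits. With a pseudocount of 5 CPM they were 0 and 4 for the genotypes with DMSO and with 5-Aza, and 1 and 7 for 5-Aza in H3WT and in H3R26C. With 0.1 CPM, 5 genes were past 2-fold for the genotypes with DMSO and 5 for 5-Aza in H3WT. With a minimum of 5 CPM the counts were 0 for the genotypes with DMSO, 1 for 5-Aza in H3WT and 9 for 5-Aza in H3R26C. Size factors by median of ratios, and the mean of per-cell CPM, each gave 2 for the genotypes with DMSO. With a 1.5-fold limit the 4 counts were 9, 25, 9 and 29. Leaving out the cluster led by Gm26917, Neat1 and Malat1, like leaving out D and G an alternative chosen after seeing the data, left the genotype ratio of Sfrp2 with 5-Aza at -1.24 and that of Dkk2 at 1.40. Frzb, Axin2 outside H3R26C 5-Aza and Lef1 rested on 4 to 172 UMIs a library, which limits what can be said of them.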
